A study of Mus musculus with 6 samples.

Results

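Sulfatases are hydrolases that take sulfate groups off sugars and lipids, and they work only after an activating enzyme has converted a cysteine in their active site. The genes described here were 7 sulfatases (Arsa, Arsb, Arsg, Arsk, Sgsh, Ids and Galns) and 2 activating factors (Sumf1 and Sumf2), picked by symbol from a count table of 24391 genes. All 9 were found, each as 1 row, and all 9 passed the filter on low counts. Arsg was put beside the others because it was already known to be among the largest increases in these libraries. Its difference between the groups is therefore a description with no test, and the calls of the other members in the same contrast are read as descriptions too.

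The counts came from poly(A) RNA of Neuro2a, an established mouse neuroblastoma cell line. The 3 control libraries, labelled vehicle, and the 3 D-serine libraries, labelled 5mM D-serine, were all made 18 hours after a change to a medium named D-MEM(-SG) with 10% serum. The groups differed, per the labels, in the 5 mM D-serine alone, so each member's difference stands for D-serine added to that medium in this line. The labels do not say whether replicates were separate cultures, so spreads and p-values cover these libraries and may be technical.

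In the lysosome, heparan sulfate, dermatan sulfate, chondroitin sulfate and keratan sulfate are taken apart from their ends, 1 sulfate or sugar at a time, and each sulfate position has its own sulfatase. Arsg, Sgsh, Ids and Arsk act on heparan sulfate, Arsb and Galns on the galactosamine-containing chains or keratan sulfate, and Arsa on sulfatide, a sulfated lipid of myelin. Sumf1 encodes the formylglycine-generating enzyme of the endoplasmic reticulum, on which every sulfatase depends, and Sumf2 encodes its paralog, which lacks that activity and can bind it. Inherited loss of many of these enzymes causes storage disease, in many cases with damage to neurons, and loss of SUMF1 impairs all sulfatases together.

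Total counts lay between 32518483 and 40024265 per library and the groups overlapped (permutation test, exact and two-sided, p = 0.4, with 0.1 the smallest value possible here). D-serine replicate 1 stood apart, with a chi-square value per degree of freedom of 17.7 and 13.9 against its fellows, whereas all other pairs within a group lay between 3.88 and 6.54. In that library counts fell with exon length relative to the other libraries. The slope was -0.072 in log2 CPM per doubling of length there, and 0.0058 and -0.0040 in D-serine replicates 2 and 3. In control replicates 1 to 3 it was 0.036, 0.019 and 0.015, so every D-serine library lay below every control library. The permutation test, exact and two-sided, gave p = 0.1 for the slope, the smallest value possible here. Fits with this trend removed are among the alternatives. CPM, a count scaled to a common library size, was computed with totals adjusted by the trimmed mean of M values (TMM). Of the 15 neuroblastoma and neuron markers checked, 12 had a mean of at least 1 CPM. The summed level of the 15 was 1757 to 1865 CPM in the controls and 1888 to 2023 CPM under D-serine, without overlap, and its part in the results below was not tested. In bulk RNA, a change in the share of a kind of cell and a change in RNA per cell cannot be told apart. Fibroblast, glia, endothelial and leukocyte markers summed to at most 6.90, 16.8, 7.37 and 0.775 CPM in any library, and Lum, Aqp4, Kdr and P2ry12 had no count.

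The feature that makes these genes a family can be read in their coding sequences, and it is the stretch on which the Sumf1 product acts. The pattern searched for was, in translation, a cysteine, any residue, a proline, a serine or cysteine, and an arginine. Each of the 7 sulfatases held exactly 1 match, at codons 68 to 92, while Sumf1 and Sumf2 held 0. Over 21755 mouse coding sequences, 1 per gene, the pattern occurred in 125 (0.575%). The matches are shown 5′ to 3′ with 5 codons on either side, from GENCODE M21 transcripts (GRCm38), and the capitals mark the 5 codons of the pattern, of which the first encodes the cysteine.
Arsg: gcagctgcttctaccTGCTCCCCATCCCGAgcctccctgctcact
Sgsh: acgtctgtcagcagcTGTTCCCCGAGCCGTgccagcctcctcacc
Ids: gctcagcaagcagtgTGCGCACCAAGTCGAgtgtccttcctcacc
Arsk: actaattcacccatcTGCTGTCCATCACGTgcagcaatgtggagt
Arsb: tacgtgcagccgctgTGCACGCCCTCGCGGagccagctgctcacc
Galns: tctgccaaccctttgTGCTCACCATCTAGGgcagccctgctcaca
Arsa: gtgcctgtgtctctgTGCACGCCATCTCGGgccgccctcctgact

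The cysteine codon was TGC in 6 of the 7 genes and TGT in Sgsh. The Arsg stretch lies in exon 3 of 12 at chr11:109517258-109517302 on the plus strand, with the cysteine at codon 84 of 525. Within the 45-base window, Arsg shared 30 bases with Arsa, 28 with Galns and 27 with Sgsh, and between 21 and 24 with Arsb, Arsk and Ids. The Sgsh window (chr11:119352658-119352702, minus strand, exon 2 of 8) and the Arsb window (chr13:93772036-93772080, plus strand, exon 1 of 8) each lie in 1 exon. The other 4 windows run across the junction of exons 2 and 3. They span chr15:89475347-89475536 for Arsa, chr13:76091807-76093921 for Arsk, chr8:122604194-122605164 for Galns and chrX:70363116-70363807 for Ids, all on the minus strand.

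Arsg encodes arylsulfatase G, which removes the rare 3-O-sulfate from the N-sulfated glucosamine of heparan sulfate. It was counted 279, 278 and 312 times in control replicates 1 to 3 and 593, 503 and 560 times in D-serine replicates 1 to 3. Scaled to depth this was 8.65, 7.49 and 8.38 CPM in the controls and 15.1, 13.7 and 13.9 CPM under D-serine. Every D-serine library lay above every control library, with a wide gap between the groups. The mean went from 8.17 ± 0.60 to 14.2 ± 0.77 CPM (SD, n = 3 each), a log2 fold change of 0.80 (SE 0.093) or 1.74-fold. Among the 10164 genes with a mean of at least 5 CPM, this was the increase ranked 2, and among all 13366 tested genes it was ranked 203. Without D-serine replicate 1 the log2 fold change was 0.76 (SE 0.11). Arsg shares 48 of its 3395 exonic bases (1.41%) with Slc16a6, a monocarboxylate transporter family gene on the opposite strand, whose counts lay between 2361 and 2919.

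Of the other heparan sulfate sulfatases, Sgsh was nearest to Arsg in direction, at a smaller size. Sgsh, the sulfamidase that is lost in a form of Sanfilippo syndrome, was at 11.001, 13.3 and 12.5 CPM in the controls and 13.8, 15.8 and 15.02 CPM under D-serine. Its libraries did not overlap between the groups, although control replicate 2 and D-serine replicate 1 lay close together. The log2 fold change was 0.28 (SE 0.092) and did not pass the threshold (edgeR adjusted p = 0.0751), while without D-serine replicate 1 it was 0.33 (adjusted p = 0.0304). Leaving out any other library gave no call, and without control replicate 1 the log2 fold change was 0.21 (edgeR adjusted p = 0.242). Of its exonic length, 22.1% is shared with Card14 on the opposite strand, a gene with 31 to 58 counts per library against 355 to 605 for Sgsh.

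Ids encodes the iduronate sulfatase whose loss causes Hunter syndrome. It was at 13.4, 15.4 and 15.9 CPM in the controls and 15.5, 16.97 and 16.1 CPM under D-serine, so that the groups overlapped. Its log2 fold change was 0.11 (SE 0.085, 95% interval -0.068 to 0.30), and 0.048 without control replicate 1. Arsk, the glucuronate sulfatase and the least expressed sulfatase of the group per length, was at 6.72, 5.96 and 6.47 CPM in the controls and 5.74, 7.81 and 6.23 CPM under D-serine. D-serine replicates 1 and 2 were the lowest and the highest of the 6 libraries, and the log2 fold change of 0.045 had an interval from -0.24 to 0.33. Its sign turned without control replicate 2 (-0.0027) or D-serine replicate 2 (-0.092). Arsg was picked for its increase, so no comparison with it is drawn from these intervals.

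Arsb was the 1 member past the threshold in the downward direction. It encodes the N-acetylgalactosamine sulfatase of dermatan and chondroitin sulfate, lost in Maroteaux-Lamy syndrome. Control libraries held 39.0, 40.5 and 41.3 CPM, and D-serine libraries 35.3, 35.1 and 34.7 CPM. The D-serine values were nearly equal and all lay below the control values. The mean fell from 40.3 ± 1.18 to 35.1 ± 0.29 CPM (mean ± SD of 3), a log2 fold change of -0.20 with SE 0.054 (edgeR adjusted p = 0.0367). The call was lost with upper quartile scaling (adjusted p = 0.0670), with library totals (0.0618) and when any of 5 libraries was left out, where the highest adjusted p was 0.129. Those libraries were control replicates 1, 2 and 3 and D-serine replicates 2 and 3.

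Galns encodes the galactosamine sulfatase that acts on keratan and chondroitin sulfate and is lost in a form of Morquio syndrome. It was at 43.9, 43.2 and 45.7 CPM in the controls and 45.5, 45.6 and 45.1 CPM under D-serine. The log2 fold change was 0.037 with an interval from -0.074 to 0.15, and its sign depended on the processing, being -0.00050 with the trend on exon length removed. Arsa, the sulfatide sulfatase lost in metachromatic leukodystrophy, was at 20.1, 20.7 and 18.8 CPM in the controls and 17.005, 20.3 and 15.4 CPM under D-serine. D-serine replicates 1 and 3 were below all control libraries, and D-serine replicate 2 was between control replicates 1 and 2. The log2 fold change of Arsa was -0.18 (SE 0.096, edgeR adjusted p = 0.246), and its size moved with D-serine replicates 2 and 3, in opposite directions. Without D-serine replicate 2 it was -0.29 (edgeR adjusted p = 0.0467) and without D-serine replicate 3 it was -0.089 (edgeR adjusted p = 0.620), and leaving out any other library gave no call.

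Of the activating factors, Sumf1 was at 48.8, 54.7 and 52.7 CPM in the controls and 52.0, 46.4 and 51.2 CPM under D-serine. The groups overlapped, with D-serine replicate 2 the lowest library, and the log2 fold change was -0.062 (SE 0.061, 95% interval -0.19 to 0.070). With 1 library left out it ranged from -0.10, lacking control replicate 1, up to -0.013, lacking D-serine replicate 2, and it was -0.024 without control replicate 2. Sumf2 was at 5.98, 5.47 and 5.72 CPM in the controls and 6.73, 7.34 and 6.78 CPM under D-serine. All 3 D-serine libraries lay above the control libraries, on 193 to 273 counts each. The log2 fold change of Sumf2 was 0.28 (SE 0.11) and did not pass the threshold (edgeR adjusted p = 0.122), nor did it in any of the 16 alternative fits (0.0910 to 0.293). Sumf2 shares 23.9% of its exonic length with Phkg1, a phosphorylase kinase subunit gene on the opposite strand with 107 to 133 counts per library, so its counts are uncertain. As a percentage of the Sumf1 level per length, Sumf2 was at 14.7, 12.05 and 13.1% in control and 15.6, 19.0 and 15.9% with D-serine.

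**Figure D1:**
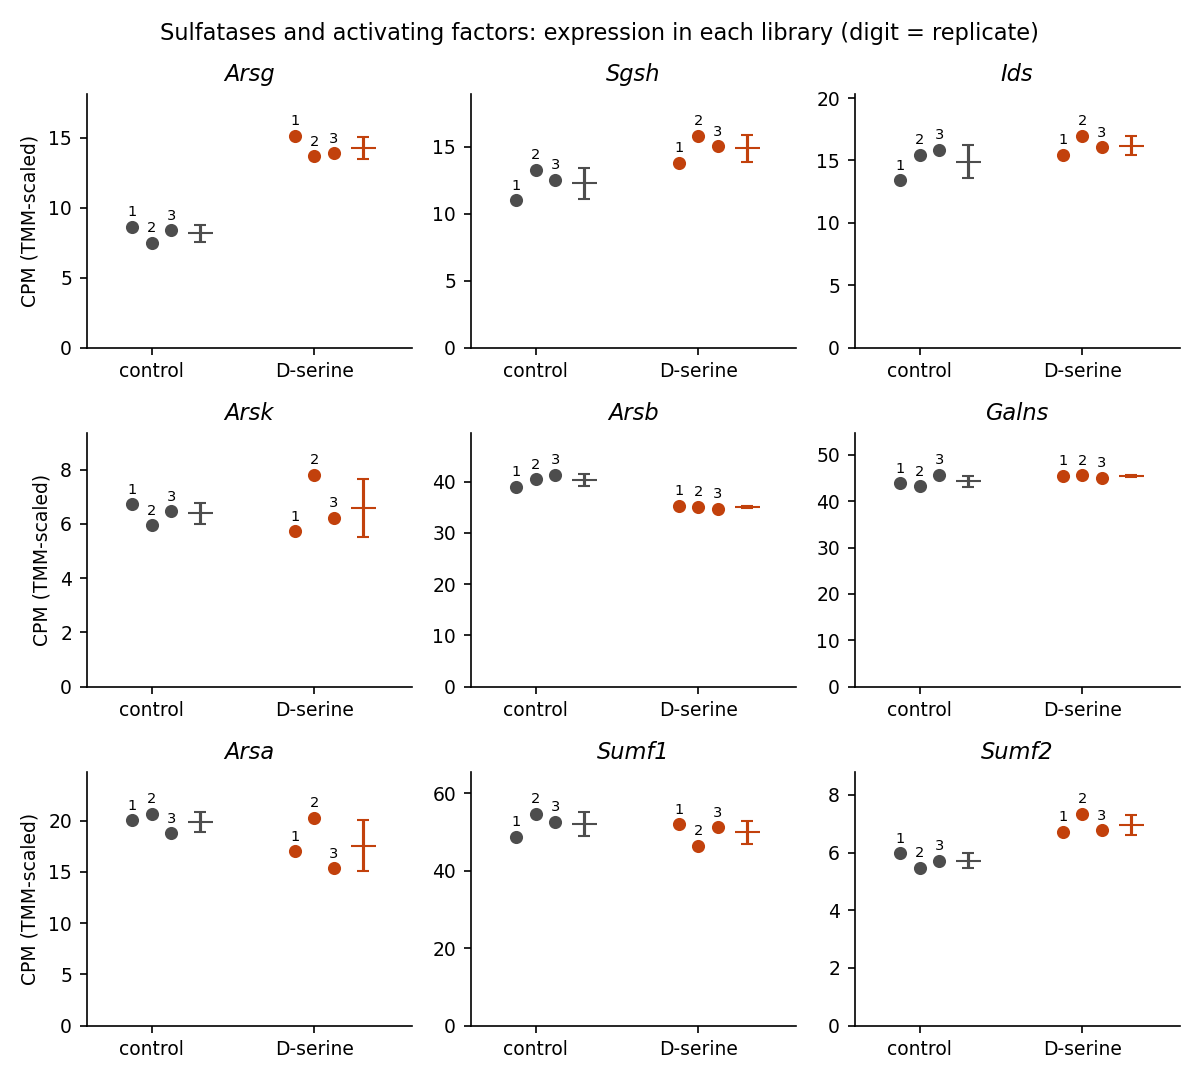
Expression of the 9 genes in CPM (vertical axes, each starting at 0) in the control and D-serine libraries. Points are libraries with their replicate number, and the bar beside them is the mean ± SD of 3. Arsg has the widest gap between the groups (7.49 to 8.65 against 13.7 to 15.1 CPM), Sgsh and Sumf2 are separated by less, Arsb is separated downward, and the other 5 overlap.

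In all, 2 of the 9 members were past an adjusted p of 0.05, Arsg higher and Arsb lower. Over the 13366 genes tested, 9.74% were past it, 647 higher (4.84%) and 655 lower (4.9%). Because Arsg was chosen for this contrast, nothing is read from the members' count. The split of the called genes moved with the processing, to 914 higher and 412 lower under upper quartile scaling, 944 and 412 with library totals, and 701 and 1417 with the length trend removed. The libraries of the groups were without overlap in 4 members, of which Arsg, Sgsh and Sumf2 were higher and Arsb was lower. The same held for 32.9% of all tested genes, 16.2% higher and 16.6% lower. The median log2 fold change of the 9 members was 0.045, against 0.0053 over all tested genes, with 6 members above 0 and 3 below.

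**Figure D2:**
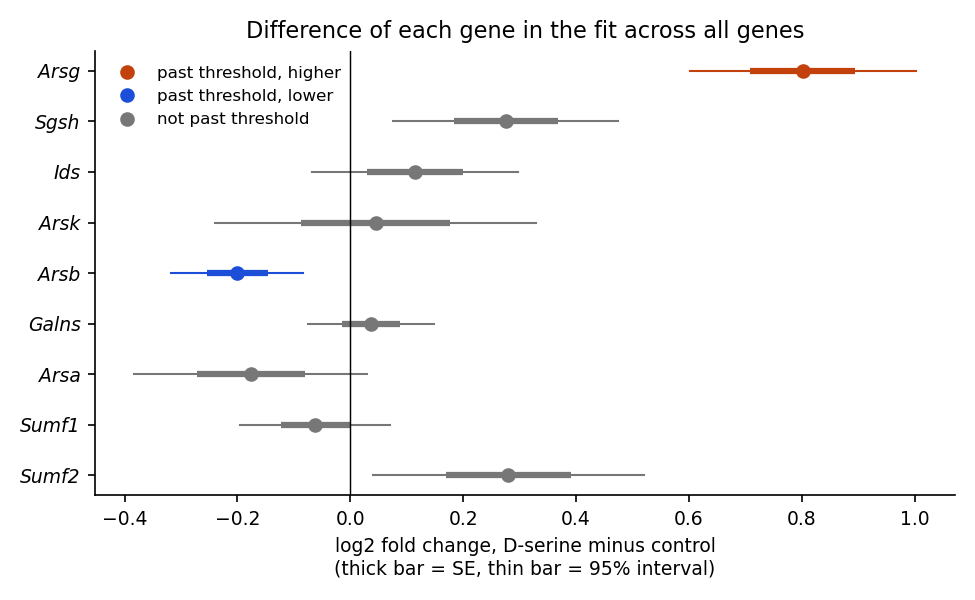
Log2 fold change, D-serine minus control (horizontal axis), of the 9 genes in the edgeR fit across all genes. Thick bars are standard errors and thin bars 95% intervals. Arsg lies at 0.80, Sgsh and Sumf2 near 0.28, Arsb at -0.20, and the intervals of Ids, Arsk, Galns, Arsa and Sumf1 include 0.

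Levels were compared between genes as CPM per kilobase of exon. In control, Sumf1 was highest at 20.01 ± 1.15, followed by Galns at 17.1 ± 0.49, Arsb at 10.1 ± 0.30 and Arsa at 5.68 ± 0.28 (SD, n = 3), and no neighbours among these overlapped. Ids at 2.998 ± 0.26, Sgsh at 2.84 ± 0.27, Sumf2 at 2.65 ± 0.12 and Arsg at 2.41 ± 0.18 followed, each overlapping the next, so their order was not resolved. Arsk was lowest at 1.75 ± 0.11 and did not overlap Arsg. The activating enzyme was thus the highest of the 9 transcripts per length, and Arsg was at rank 7, 8 and 8 in the control libraries.

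With D-serine, Arsg was at 4.19 ± 0.23 CPM per kilobase and at rank 5 in all 3 libraries, above Sgsh (3.44 ± 0.23) without overlap. It overlapped Arsa, at 5.03 ± 0.72. Of the summed level of the 7 sulfatases, Arsg made up 6.05, 5.16 and 5.65% in control and 10.2, 8.86 and 9.51% with D-serine. The summed level of the other 6 was 39.6, 40.6 and 41.2 CPM per kilobase in control and 39.2, 41.5 and 38.9 with D-serine, so that the groups overlapped there.

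**Figure D3:**
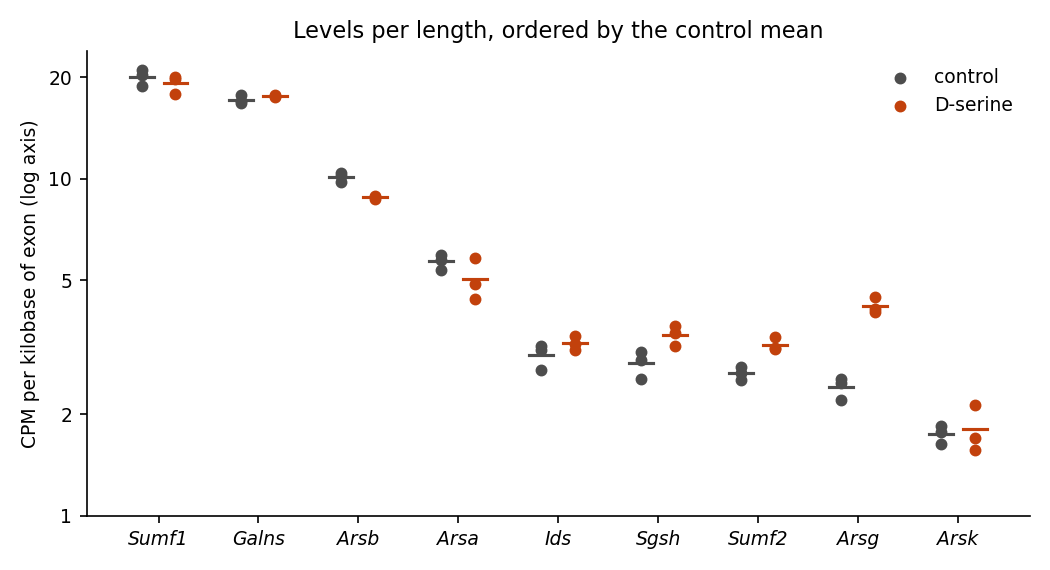
Level of each gene in CPM per kilobase of exon (vertical log axis), ordered by the control mean. Points are libraries and short lines are means of 3. Arsg is at rank 8 of 9 by its control mean (2.41) and at rank 5 by its D-serine mean (4.19), while Sumf1 is highest and Arsk lowest in both groups.

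Some sulfatases outside the 9 were hardly expressed. The extracellular sulfatases Sulf1 and Sulf2, which edit heparan sulfate on the cell surface, had 12 to 33 and 16 to 40 counts per library. Their log2 fold changes of 0.55 (SE 0.39) and 0.32 (SE 0.38) were not past the threshold. Arsi and Arsj had at most 2 counts in any library and were not tested.

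Among 4 partners of the activating enzymes, Erp44 and Lman1, which hold or escort the Sumf1 product in the secretory pathway, and P4hb and Furin, 0 passed the threshold in edgeR. Of these 4, 2 had an unadjusted p under 0.05, as had 3769 of the 13366 genes tested, and DESeq2 called 2 and limma-voom 0. P4hb, the protein disulfide isomerase with the smallest p of the list, was at 1051 ± 18.6 CPM in the controls and 965 ± 34.1 CPM under D-serine (mean ± SD of 3), a log2 fold change of -0.12 with SE 0.039 (edgeR adjusted p = 0.0669).

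The other enzymes listed under glycosaminoglycan breakdown lay mostly above 0 without passing the test. Of 11 tested genes of glycosaminoglycan breakdown, 0 passed in edgeR, 3 had an unadjusted p under 0.05 (3769 of 13366 over all genes), and DESeq2 called 1 and limma-voom 0. Their median log2 fold change was 0.12, against 0.0053 over all genes, with 9 above 0. In 6 of them every D-serine library lay above every control library, where 16.2% of all tested genes did so. Idua, the iduronidase that acts after Ids and is lost in Hurler syndrome, had the smallest p. It was at 2.54, 2.48 and 2.63 CPM in the controls and 4.90, 3.64 and 3.13 CPM under D-serine (log2 fold change 0.61, SE 0.19, edgeR adjusted p = 0.0585). The control values were close together, and D-serine replicate 1 was the highest.

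The enzymes that add sulfate lay mostly below 0. Of 26 glycosaminoglycan sulfotransferases 9 were tested, and 2 of them were lower and 0 higher, the median difference was -0.13 on the log2 scale and 8 of 9 lay below 0. Over all tested genes 4.9% were called lower and 6476 of 13366 lay below 0. In 5 of the 9 every D-serine library lay below every control library, where 16.6% of all tested genes did so. Hs3st3b1, which adds 3-O-sulfates, the class that arylsulfatase G takes off, fell from 92.8, 89.0 and 81.8 CPM in control to 71.7, 74.0 and 72.1 CPM under D-serine (log2 fold change -0.28, SE 0.054, edgeR adjusted p = 0.0125). Hs2st1, which adds the 2-O-sulfate that Ids and Arsk act on, fell from 53.3, 52.9 and 55.2 CPM to 42.5, 48.0 and 44.8 CPM (log2 fold change -0.25, SE 0.057, edgeR adjusted p = 0.0191). In both genes the groups did not overlap. They have 6004 and 4811 bases of exon, and the slope on exon length was lower in the D-serine libraries. With that trend removed Hs3st3b1 was at -0.23 and Hs2st1 at -0.24, and both calls remained. The part of the trend in the median of the list was not tested. The call of Hs3st3b1 was lost without control replicate 1 (adjusted p = 0.0645), control replicate 2 (0.0654) or D-serine replicate 3 (0.0505). That of Hs2st1 was lost without control replicate 1, 2 or 3 or D-serine replicate 3, with adjusted p-values up to 0.0713.

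Many lysosomal enzymes are sorted by mannose 6-phosphate tags and their receptors, and some proteins by sortilin, which does not read that tag. Of the 6 tested genes of this list 1 was lower and 0 were higher, where 4.9% of all tested genes were lower, and the median difference was -0.093 on the log2 scale. The tagging enzymes and tag receptors Gnptab, Gnptg, Nagpa, M6pr and Igf2r gave no call, and the lower gene was Sort1. Sort1, which encodes sortilin, fell from 184.6, 189 and 189.8 CPM in control to 142, 168 and 168 CPM under D-serine (log2 fold change -0.24, SE 0.060, edgeR adjusted p = 0.0291). D-serine replicate 1 was the lowest library, and without it the log2 fold change was smaller, at -0.16, and the call remained. It was lost without control replicate 1, 2 or 3 or D-serine replicate 3, with adjusted p-values up to 0.107. With the trend on exon length removed, Sort1, with 6930 bases of exon, was at -0.17 and the call remained. Of the genes listed for sulfatide metabolism, Galc, Psap and Gla were tested. Gal3st1 and Ugt8a had at most 16 and 2 counts in any library and were not. Of the 3 tested, 0 passed in edgeR, DESeq2 or limma-voom, and 1 had an unadjusted p under 0.05 (3769 of 13366 over all genes). This was Gla, an alpha-galactosidase that does not itself act on sulfatide. It was at 7.93 ± 0.72 CPM in the controls and 9.77 ± 0.27 CPM under D-serine (mean ± SD of 3), a log2 fold change of 0.30 with SE 0.10 (edgeR adjusted p = 0.0723).

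**Figure D4:**
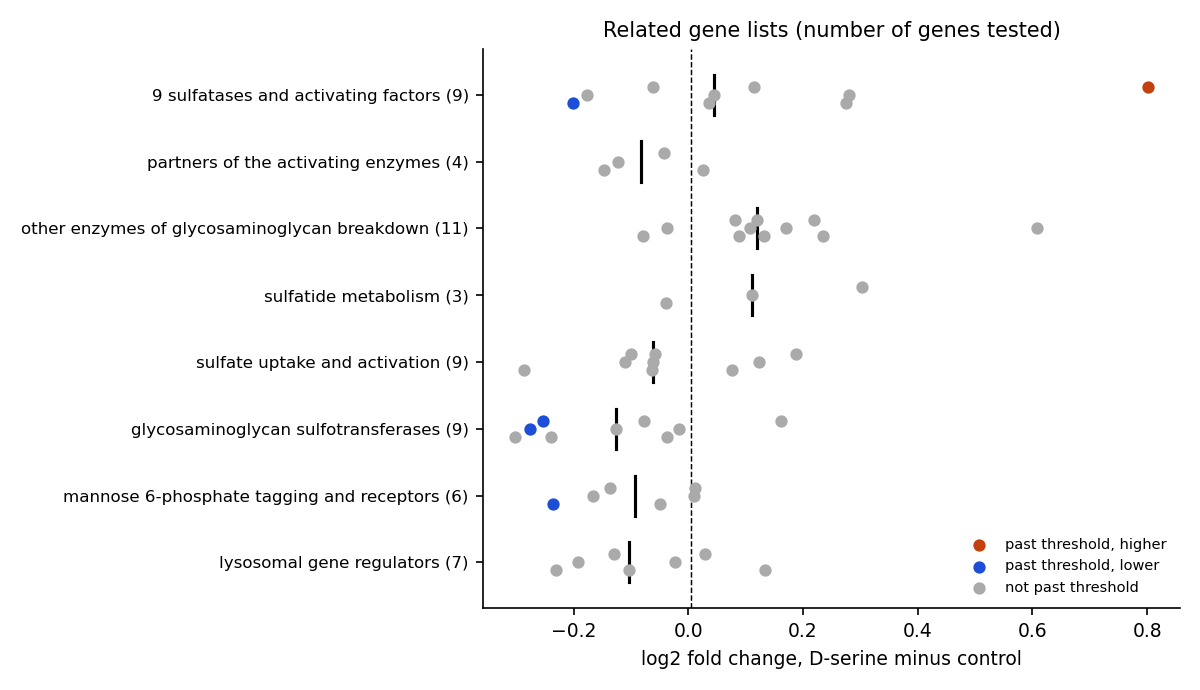
Log2 fold change, D-serine minus control (horizontal axis), of every tested gene in the 9 members and 7 related lists. Short black lines are list medians and the dashed line is the median of all tested genes (0.0053). Glycosaminoglycan breakdown has a median of 0.12 and the sulfotransferases one of -0.13, and Arsg is the 1 point past the threshold on the upper side.

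A pattern most like that of Arsg over the 6 libraries was found in Letm2, Cdnf, Fam122b, Trdmt1 and Pex11g. Likeness was the root mean square difference of log2 CPM centred on each gene's mean, over 10163 genes with at least 5 CPM. It was 0.050 for Letm2, a mitochondrial inner membrane protein gene, and 0.083 for Cdnf, a neurotrophic factor gene. It was 0.11 for Fam122b and 0.12 for Trdmt1, a tRNA methyltransferase gene, and for Pex11g, a peroxisomal membrane protein gene. Among the members, Sumf2 (0.27) and Sgsh (0.31) were nearest to Arsg and Arsa (0.52) and Arsb (0.51) were farthest, with Sumf2 at rank 364.

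Several members begin close to another gene on the opposite strand, as deposited. The start of Arsg lies 222 bases from that of Slc16a6, that of Sgsh 47 bases from Slc26a11, that of Arsk 74 bases from Ttc37 and that of Galns 139 bases from Trappc2l. Ttc37 and Trappc2l were looked at after the members' values were seen. Slc16a6 was at 69.1 ± 3.61 CPM in the controls and 72.8 ± 1.72 CPM under D-serine (mean ± SD of 3), a log2 fold change of 0.075 with SE 0.052, so its groups overlapped where those of Arsg did not. Slc26a11, a sulfate transporter gene, was at 24.1 ± 1.77 and 19.8 ± 2.96 CPM (log2 fold change -0.29, SE 0.10, edgeR adjusted p = 0.0846), below 0 where Sgsh was above it. Ttc37 had a log2 fold change of -0.059 and Trappc2l one of 0.25 (edgeR adjusted p = 0.0565).

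The hexamer CACGTG, the core of the element bound by the lysosomal regulator TFEB, was searched for in the promoters. RefSeq windows of 250 bases before to 50 bases after the start (GRCm38.p6) were matched for 8 of the 9 members. The motif is its own reverse complement, so both strands were covered. It was found in Sumf1, Sgsh and Arsa, while 8.09% of 27025 genes held it in any window (7.15% of 32851 windows). By RefSeq spans, the windows matched to Arsg and Ids lie inside those genes, away from their outermost start. The promoters at that RefSeq start were therefore not searched. The deposited span of Ids is shorter than its RefSeq span, so the Ids window may lie at the start used in the counts. The matches are shown with 12 bases on either side, the motif in capitals.
Sgsh: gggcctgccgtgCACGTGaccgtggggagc
Sumf1: agcaccacaggtCACGTGatctccatgggt
Arsa: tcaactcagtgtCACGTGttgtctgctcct

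The 3 members with the hexamer did not share a direction, at log2 fold changes of 0.28 for Sgsh, -0.062 for Sumf1 and -0.18 for Arsa. The windows span chr11:119355461-119355760, chr6:108185534-108185833 and chr15:89477375-89477674, all on the minus strand. No binding was measured in this study, and a match is a match of letters.

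The difference of Arsg lay between 0.74 and 0.84 on the log2 scale over 16 alternative fits, with a standard error of 0.090 to 0.11. That of Sgsh, between 0.21 and 0.34, passed the threshold in 4 of the 16, and that of Arsb, between -0.22 and -0.17, in 8.

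**Figure D5:**
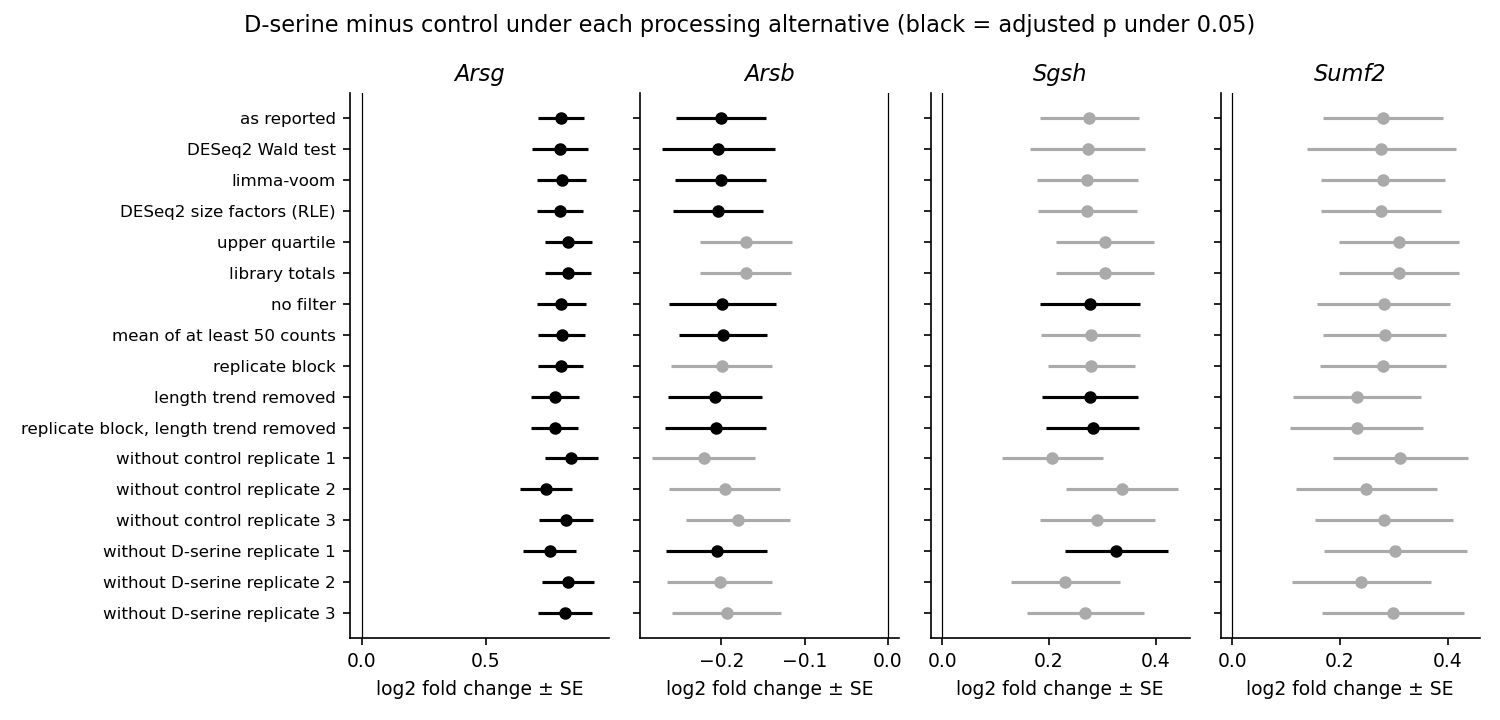
Log2 fold change ± SE (horizontal axes), D-serine minus control, of Arsg, Arsb, Sgsh and Sumf2 in the reported fit and under each of 16 alternatives (rows). Black points have an adjusted p under 0.05. Arsg stays between 0.74 and 0.84, Arsb is black in 8 alternatives and Sgsh in 4, and Sumf2 in 0.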

How the data were processed

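RNA of 6 Neuro2a libraries was analysed, 3 control and 3 with D-serine. What the authors deposited was a single table of unnormalised read counts by gene symbol, with exon positions and a length column, per the file headers. bcl2fastq, Trim Galore, HISAT2, featureCounts, Subread and DESeq2 and the builds GRCm38 and mm10 are named in the submitters' processing notes, without versions or roles. The strand setting is not given in the sources used here, so overlapping genes on opposite strands are uncertain. Starts of 313 of 23125 genes matched GRCm38 RefSeq positions and 0 of the 9 members did, so no position of the table is printed, and positions of sequences are those of GRCm38.

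The counts were tested with edgeR 4.0.16 in R 4.3.3 (filterByExpr, TMM, quasi-likelihood F test without covariate, Benjamini-Hochberg over 13366 genes, threshold 0.05). The standard error is the log2 fold change divided by the square root of F, and log2 CPM used a prior count of 2. The same steps were tested on simulated data. Each library's total limits the precision, and Sumf2, Arsg and Sgsh rest on 193 to 605 counts per library. Alternatives were DESeq2 1.42.0, limma-voom (limma 3.58.1), other scalings and filters, the replicate block, removal of each library's trend on exon length (spline with 5 degrees of freedom), and leaving out each library. The members and lists were chosen with earlier results of these data known. Named genes were every member, other sulfatases, the called genes of each list or else the one with the smallest p, genes that overlap a member, and the 5 nearest to Arsg in pattern. Sts and Chst6 were not analysed here, and some genes of the lists are not reported here.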

Additional observations from a re-analysis of the deposited data

How the results depend on the processing

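Over the 16 alternatives run, the log2 fold change of Arsg lay between 0.74 and 0.84. The count of genes past the threshold (1302) was 298 with the replicate block, 2118 with the length trend removed and 68 to 1699 when 1 library was left out, lowest without control replicate 2. The count of members past it (2) was 1 under upper quartile scaling, library totals and the replicate block, 3 with no filter and with the length trend removed, with or without the block, and 1 to 3 with 1 library left out. The count over the 8 related lists (3) was 8 in DESeq2 and with no filter, 5 under upper quartile scaling and library totals, 1 with the replicate block, 10 with the length trend removed, 9 with both, and 0 to 7 with 1 library left out. Signs turned for Arsk, at -0.0027 when control replicate 2 was left out and -0.092 when D-serine replicate 2 was (leaving out 1 library gave -0.092 to 0.13), and for Galns, at -0.00050 with the length trend removed and -0.000093 with the replicate block added. The cause was not tested. Same-numbered libraries correlated at -0.069, 0.020 and -0.019 in their deviations from the group means and not every library correlated best with its own number, so the numbers were not taken as pairs. The replicate block gave 0.80 for Arsg and lost the calls of Arsb (-0.20, edgeR adjusted p = 0.0888), Hs2st1 (-0.25, 0.0541) and Sort1 (-0.24, 0.0541). Fitted differences of Sulf1 and Sulf2 rest on at most 40 counts per library.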

Other observations

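Genes that supply sulfate for the opposite reaction, its addition to sugars and lipids, gave no call in edgeR. Of 9 tested genes of sulfate uptake and activation 0 passed the threshold, 3 had an unadjusted p under 0.05 (3769 of 13366 over all genes), and DESeq2 called 1 and limma-voom 0. Their median log2 fold change was -0.062 with 6 of 9 below 0, and the smallest p belonged to Slc26a11, at 23.1, 23.1 and 26.1 CPM in the controls and 16.4, 22.03 and 20.8 CPM under D-serine (SD 1.77 and 2.96). D-serine replicate 1 was the lowest library.

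Of 7 tested regulators of lysosomal genes, 0 passed in edgeR, 3 had an unadjusted p under 0.05 (3769 of 13366 over all genes), and DESeq2 called 1 and limma-voom 0. The smallest p belonged to Fnip2, a partner of folliculin, at 86.9 ± 3.56 CPM in the controls and 76.1 ± 6.16 CPM under D-serine (mean ± SD of 3), a log2 fold change of -0.19 with SE 0.061 (edgeR adjusted p = 0.0623). Tfeb, the regulator named above for its binding element, and chosen here after its values were seen, was at 21.7 ± 2.01 and 21.3 ± 1.95 CPM (log2 fold change -0.024, SE 0.087).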
